A study of Mus musculus with 8 samples.

Results

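The 6 Fc receptor genes measured here were Fcgr1, Fcgr2b, Fcgr3, Fcgr4, Fcer1g and Fcgrt, taken by name out of 18266 genes tested and 28786 genes named on the array. Together they had 11 probes, and every probe whose name in the scanner files was that of a member, or its older symbol, was included. The Fcgr4 probe carried the older name Fcgr3a. The series asked how Ly-6C-high monocytes of the spleen compare with those in the blood, on 1-colour Agilent arrays of 4 blood and 4 spleen samples. Both groups came from 4 healthy, untreated female C57BL/6 mice, an inbred strain, aged 8 to 12 weeks and on a chow diet, and the design text says that both tissues of each mouse were sorted. Cells with high CD11b and high Ly-6C were sorted when they stained weakly for the lymphocyte and granulocyte antigens CD90, NK1.1, CD49b, Ly-6G and B220, and also weakly for CD11c, F4/80 and I-Ab. From 1000 cells a sample, 5 ng of RNA was amplified.

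Receptors for the constant part of IgG let phagocytes bind antibody-coated particles and immune complexes. In the mouse, FcγRI (Fcgr1), FcγRIII (Fcgr3) and FcγRIV (Fcgr4) are activating receptors that signal through the ITAM motif of the shared γ chain (Fcer1g), whereas FcγRIIB (Fcgr2b) carries an inhibitory ITIM motif and raises the threshold of activation. FcRn (Fcgrt) is a different kind of receptor, related to MHC class I and paired with β2-microglobulin, that returns IgG from endosomes to the cell surface. In mouse blood, FcγRIV is known as a receptor of Ly-6C-low monocytes and neutrophils more than of Ly-6C-high monocytes.

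Each array probe is 60 bases long and reports only the stretch of transcript that it matches. By the positions that accompany the probes (mouse build mm7), the Fcgr2b probes lay at chr1:170937333-170942237, the Fcgr4 probe at chr1:171006083-171006142, the Fcgr3 probes at chr1:171027992-171030533 and the Fcer1g probes at chr1:171199756-171199880, so that 4 of the 6 genes lay within 262.5 kb. The Fcgr1 probes lay on another chromosome, at chr3:96156859-96158488, and the Fcgrt probe at chr7:41270914-41270973. No exon or untranslated region annotation of this build was used here. A probe of each of 4 members is shown. Among the members, Fcgr2b and Fcgr3 are close paralogs. Capitals mark the longest run of bases that the probe shares with a probe of another member gene.
Fcgr1 probe 2: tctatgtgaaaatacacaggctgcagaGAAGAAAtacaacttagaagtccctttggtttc
Fcgr2b probe 1: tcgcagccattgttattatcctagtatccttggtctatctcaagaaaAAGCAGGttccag
Fcgr3 probe 1: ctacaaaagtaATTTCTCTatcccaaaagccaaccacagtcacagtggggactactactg
Fcgrt probe 1: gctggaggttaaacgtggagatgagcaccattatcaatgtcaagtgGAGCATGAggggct
The longest such run was 8 bases over all 11 probes. A short run shared between probes does not show that they tell the genes apart, because they may read different parts of the transcripts. Matches of a probe to the full transcripts of the other genes were not tested.

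The values below are levels on the log2 scale of the authors' value table, in which all 8 columns had the same median of 7.31 and the background level was 6.8. All 11 probes were well above background and unsaturated in each of the 8 scanner files. For blood 1, blood 2 and blood 3, however, the scanner file and the table column did not hold the same array (rank correlations of 0.842, 0.852 and 0.872, against values that rounded to 1 for the other 5), and the sources used here do not say which holds the intended sample. Results are given from the table, and with and without those 3 columns where the direction differed. The p-values rest on the spread among these 8 samples, and with sorted cells measured in bulk, fewer cells of a type and less RNA per cell cannot be told apart.

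In the authors' table none of the 6 Fc receptor genes differed between spleen and blood beyond the spread between samples, and none had groups that did not overlap. The count was 0 of 6 at an adjusted p under 0.05 in limma's moderated test, where 0.0% of 18266 genes passed, and 0 of 6 at an unadjusted p under 0.05, where 5.43% of all genes did. Of the 9 tested probes 0 had an unadjusted p under 0.05, against 5.57% of 25471 probes. Groups did not overlap for 3.3% of all genes. The count of members passing the adjusted threshold was also 0 with array weights, an intensity trend, a replicate block and every other setting tried. The count at an unadjusted p under 0.05 depended on which deposit was used for blood. With all 8 scanner files, 3 of which do not match the table, Fcgr1, Fcgr2b and Fcgr3 were higher in spleen at that level, at 2.51, 1.66 and 1.46 with scaling to the 75th percentile (unadjusted p = 0.0133, 0.0163 and 0.0268, limma). That was 3 of 6 members against 8.12% of 20944 genes, and also 3 of 6 against 9.1% with normexp. The matching scanner files leave blood 4 as the only blood sample, so no count is given for them. In the table without blood 3 the count was 1 of 6, Fcgr2b, against 5.46% of 18266 genes. The spleen mean was above the blood mean for 4 members and below it for 2, and 48.8% of all genes were higher in spleen. Differences ran from -0.13 to 0.49, with a median of 0.16 beside -0.0081 over all genes. For 3 of 6 members, Fcgr1, Fcgr3 and Fcer1g, the 95% interval lay within 2-fold in either direction, as it did for 55.1% of all genes.

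**Figure D1:**
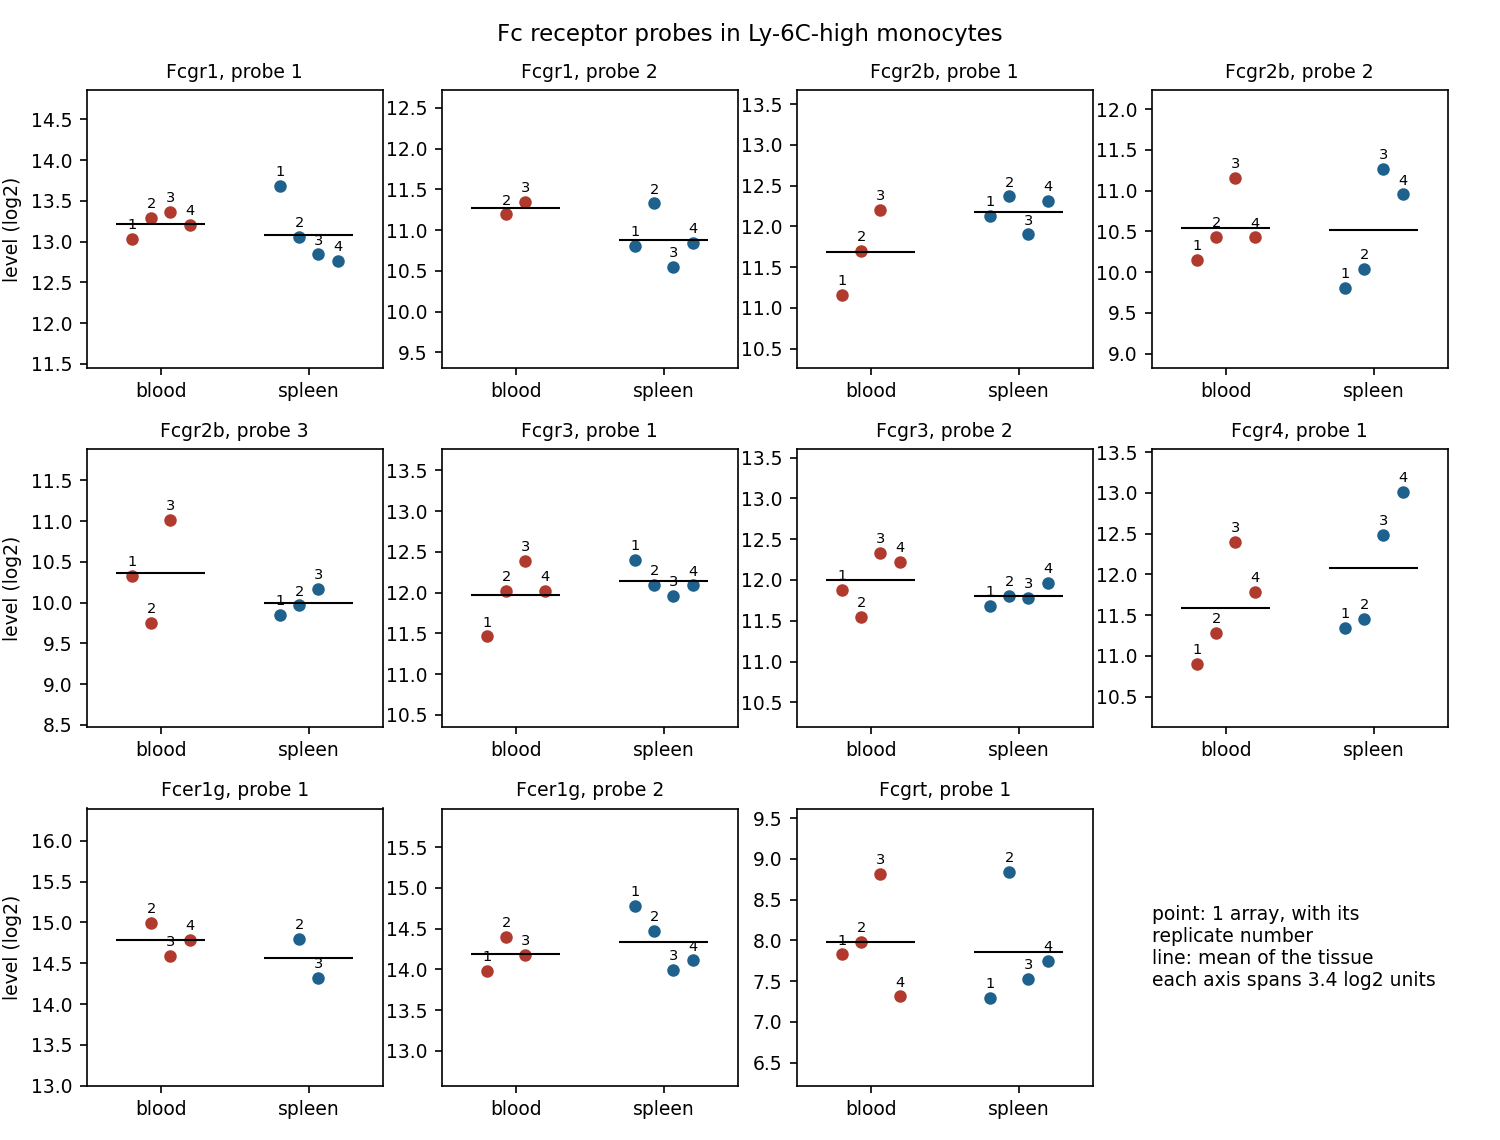
Level (log2, vertical axis) of each of the 11 Fc receptor probes in blood and spleen; each point is 1 array with its replicate number, each line the mean of a tissue, and each axis spans the same number of log2 units. Blood and spleen points overlap in every panel, and Fcgr4 has the widest spread, from 10.90 to 13.01.

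Among the activating receptors, Fcgr1, the high-affinity IgG receptor, overlapped between the tissues. Its brighter probe read 13.03, 13.29, 13.36 and 13.20 in blood 1 to 4, and 13.68, 13.05, 12.84 and 12.77 in spleen 1 to 4. Spleen 1 was the highest of all arrays and spleen 3 and spleen 4 the lowest, so the range of spleen enclosed that of blood. The difference was -0.13 ± 0.24 (SE, 95% interval -0.68 to 0.42, unadjusted p = 0.595, limma, n = 4 and 4). The other Fcgr1 probe had no value in blood 1 and blood 4 and was not tested. It read 11.19 and 11.35 in blood 2 and blood 3, and 10.81, 11.33, 10.55 and 10.85 in spleen, which again overlapped.

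Fcgr3, the low-affinity activating receptor, had 2 probes whose differences had opposite signs. The brighter probe read 11.46, 12.02, 12.39 and 12.02 in blood and 12.40, 12.10, 11.96 and 12.09 in spleen. Blood 1 was the lowest array, and the other 3 blood arrays lay among those of spleen. The difference was 0.16 ± 0.24 (SE, 95% interval -0.38 to 0.71, unadjusted p = 0.520), and without blood 1 it was -0.0087. The other probe read 11.88, 11.54, 12.33 and 12.22 in blood and 11.68, 11.80, 11.78 and 11.97 in spleen. Here blood 3 and blood 4 were highest and blood 2 lowest, and the difference was -0.19 ± 0.24 (SE, unadjusted p = 0.444, in the fit over 25471 probes). The mean of both probes differed by -0.013.

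Fcgr4, the activating receptor that binds IgG2a and IgG2b in the mouse, varied most from array to array. Its only probe read 10.90, 11.28, 12.40 and 11.78 in blood and 11.34, 11.45, 12.49 and 13.01 in spleen. Blood 3, spleen 3 and spleen 4 were high and blood 1 low, and 2 of 4 spleen arrays exceeded every blood array. The range was 2.11 log2 units or 4.31-fold, and 82.8% of tested genes had a smaller SD over the 8 arrays than its 0.73. Blood averaged 11.59 ± 0.65 and spleen 12.07 ± 0.81 (each SD, n = 4), a difference of 0.48 ± 0.45 (SE, 95% interval -0.52 to 1.49, unadjusted p = 0.310, limma). That interval reaches from 0.695-fold to 2.80-fold. Between samples of the same number spleen was higher in 4 of 4, by 0.090 to 1.23, though the labels do not tie a number to a mouse. With the number as a fixed block the unadjusted p was 0.105, and as a random block 0.234 (limma). The share of all genes with 4 of 4 in the same direction is not given here.

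Fcgr2b, the inhibitory receptor, had the difference with the smallest p of the 6, but its 3 probes did not share a direction. The brightest probe had no value in blood 4, the only blood column that matched its scanner file. It read 11.16, 11.70 and 12.20 in blood 1 to 3 and 12.13, 12.37, 11.90 and 12.31 in spleen. Blood 1 and blood 2 lay below every spleen array while blood 3 lay among them, and 2 of 4 spleen arrays exceeded every blood array. The difference was 0.49 ± 0.29 (SE, 95% interval -0.18 to 1.16, or 1.40-fold, unadjusted p = 0.130, limma, n = 3 and 4). It was 0.75 without blood 3 (unadjusted p = 0.0349) and 0.23 without blood 1, and the adjusted p of each of the 6 genes rounded to 1.

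The second Fcgr2b probe was printed on 10 spots of each array and had values in all 8 samples. It read 10.15, 10.43, 11.15 and 10.42 in blood and 9.81, 10.03, 11.26 and 10.95 in spleen, high in blood 3, spleen 3 and spleen 4 and low in spleen 1 and spleen 2. The difference was -0.026 ± 0.37 (SE, unadjusted p = 0.946). Its spots within an array had an SD of 0.124 to 0.168 in the 5 matching scanner files, against 0.43 between blood samples and 0.70 between spleen samples. The third probe had no value in blood 4 or spleen 4 and read 10.32, 9.75 and 11.01 in blood and 9.85, 9.96 and 10.17 in spleen. The spleen arrays lay close together and within the range of blood, with a difference of -0.37 ± 0.36 (SE, unadjusted p = 0.341, n = 3 and 3). The blood values of this probe, too, came only from columns that did not match their scanner files. Whether the probes read different transcripts of Fcgr2b was not tested.

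**Figure D2:**
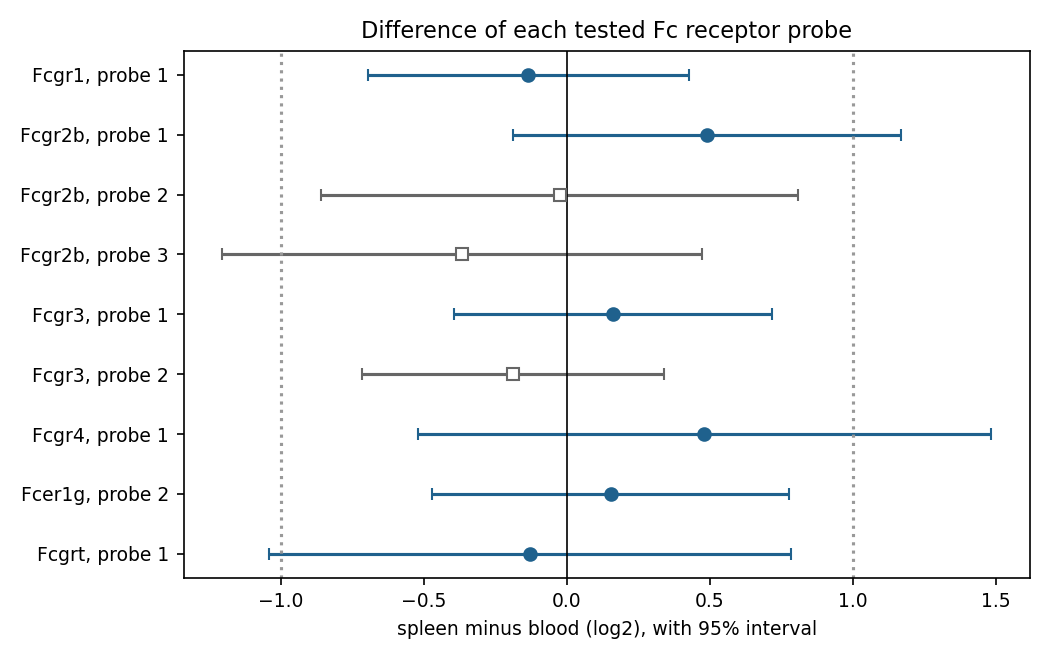
Spleen minus blood (log2, horizontal axis) of the 9 tested Fc receptor probes with 95% intervals from limma; filled circles are the brightest tested probe of a gene, open squares its other probes, and dotted lines mark 2-fold. Every interval spans 0, and the probes of Fcgr2b and of Fcgr3 lie on both sides of it.

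Fcer1g, the signalling chain that FcγRI, FcγRIII and FcγRIV need for surface expression, also overlapped between tissues. The tested probe read 13.98, 14.40 and 14.18 in blood 1 to 3 and 14.78, 14.47, 14.00 and 14.11 in spleen, with no value in blood 4. Spleen 1 and spleen 2 were the highest arrays and blood 1 and spleen 3 the lowest. The 3 blood columns were those that did not match their scanner files. The difference was 0.15 ± 0.27 (SE, 95% interval -0.46 to 0.76, unadjusted p = 0.583, limma, n = 3 and 4). The other probe read 14.99, 14.59 and 14.79 in blood 2 to 4 but had only 2 spleen values, 14.80 in spleen 2 and 14.32 in spleen 3, and was not tested.

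Fcgrt, the IgG-recycling receptor, lay closest to the background level and had a wide spread. Its probe read 7.83, 7.98, 8.81 and 7.31 in blood and 7.29, 8.84, 7.52 and 7.75 in spleen. Blood 3 and spleen 2 stood above the other 6 arrays, and the groups overlapped over nearly their whole range. The difference was -0.13 ± 0.41 (SE, 95% interval -1.04 to 0.78, unadjusted p = 0.756, limma). It was 0.15 without blood 3 and 0.056 without spleen 1, and with blood 4 as the only blood column it was 0.54, so these arrays gave it no settled direction.

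The balance of activating to inhibitory receptors was followed as the log2 level of Fcgr1, Fcgr3 or Fcgr4 minus that of Fcgr2b in the same array. The zero of such a difference between probes has no meaning, but its change between arrays does. Against the brightest Fcgr2b probe, Fcgr1 minus Fcgr2b was 1.87, 1.59 and 1.16 in blood 1 to 3 and 1.55, 0.686, 0.944 and 0.456 in spleen. Of the spleen arrays 3 lay below every blood array and spleen 1 lay among them, a change of -0.63 (exact two-sided permutation p = 0.114, adjusted over the 3 ratios 0.171). Fcgr3 minus Fcgr2b was 0.301, 0.327 and 0.195 in blood and 0.276, -0.27, 0.059 and -0.22 in spleen. Again spleen 1 lay among the blood arrays and the other 3 below them, a change of -0.31 (exact p = 0.114, adjusted 0.171). Fcgr4 minus Fcgr2b changed by 0.055 (exact p = 1), with spleen 3 and spleen 4 above and spleen 1 and spleen 2 below all blood arrays. With 3 against 4 arrays the smallest possible p was 0.0571, so no ratio could pass. All 3 blood columns in these ratios were those that did not match their scanner files.

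The same ratios were taken against the Fcgr2b probe that had all 8 values, a choice made after the data were seen. Fcgr1 minus Fcgr2b then changed by -0.11 (exact p = 0.857) and Fcgr3 minus Fcgr2b by 0.19 (exact p = 0.743), the opposite sign to that with the brightest probe. Fcgr4 minus Fcgr2b was 0.749, 0.85, 1.24 and 1.36 in blood and 1.53, 1.42, 1.22 and 2.06 in spleen. Spleen 1, spleen 2 and spleen 4 lay above every blood array and spleen 3 within them, a change of 0.51 (exact p = 0.0857, adjusted 0.257, smallest possible 0.0286). No ratio passed with either Fcgr2b probe.

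**Figure D3:**
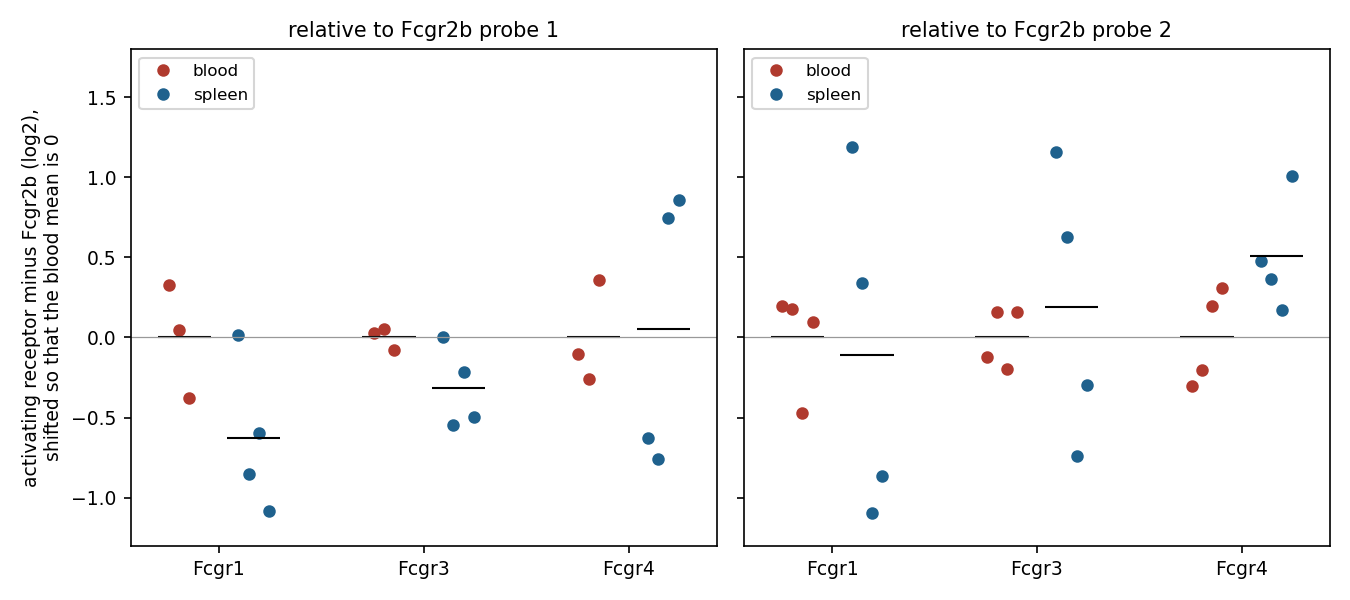
Log2 level of Fcgr1, Fcgr3 and Fcgr4 minus that of Fcgr2b in the same array, shifted so that each blood mean is 0, against Fcgr2b probe 1 (left, no value in blood 4) and probe 2 (right); points are arrays and lines are means of a tissue. The spleen means of Fcgr1 and Fcgr3 lie 0.63 and 0.31 below blood on the left, and that of Fcgr3 lies above blood on the right.

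Over the 15 pairs of members, Pearson's r of the brightest probes across 7 or 8 arrays ran from -0.48 to 0.81, and 0 pairs passed an exact permutation test after adjustment over the pairs (smallest adjusted p = 0.292, and 0.417 for Spearman's rho). The highest was Fcgr2b with Fcgr3, at r = 0.81 and rho = 0.64 over 7 arrays (exact permutation p = 0.0351 and 0.139). It was r = 0.18 without the 2 arrays farthest from the median of Fcgr2b, though leaving out extremes narrows the range and can itself lower r. Fcgr1 with Fcer1g had r = 0.77 and rho = 0.71 over 7 arrays (exact permutation p = 0.0389 and 0.0881), and r = 0.63 without the 2 arrays farthest from the median of Fcgr1. The highest rho was that of Fcgr3 with Fcer1g, at 0.82 (exact permutation p = 0.0341, r = 0.62). These values belong to the probes used. Fcgr2b probe 1 had r = 0.17 with probe 2 and 0.054 with probe 3, while probes 2 and 3 had 0.61. The probes of Fcgr3 had r = 0.17 and those of Fcgr1 0.29. By probe, Fcgr2b with Fcgr3 ran from 0.10 (probe 2 with probe 1) to 0.98 (probe 3 with probe 2, over 6 arrays). Slides of the 3 unmatched blood columns are not known, so no value within slides could be given. As a description of likeness, the genes whose brightest probe followed each member most closely, by Pearson's r over 7 or 8 arrays among 16550 or 18036 tested genes, were Ssbp4, Mtmr10 and Cgnl1 for Fcgr1 (0.955 to 0.975) and BM939341, Dnmt1 and Nop10 for Fcgr2b (0.951 to 0.961). They were AA881470, Mib2 and Blvrb for Fcgr3 (0.947 to 0.966), and Ankrd13c, Zfp35 and AA516935 for Fcgr4 (0.944 to 0.964). Maff, Poc1b and Elp4 were most like Fcer1g (0.981 to 0.989), and Arfgef2, Tk1 and Zfp120 most like Fcgrt (0.959 to 0.97). They were picked as the highest of all, so no p is given.

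Around the receptors, 6 lists of 84 genes were followed, of which 72 were tested. In spleen 37 were higher and 35 lower, 0 passed the adjusted threshold in limma's test, and 7 had an unadjusted p under 0.05 (2 higher and 5 lower). Over all genes 3.09% were higher and 2.34% lower at that level. Groups did not overlap for 5 of the 72, against 3.3% of all genes.

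Of 22 genes of ITAM signalling, the kinases and adaptors that act downstream of the γ chain, 20 were tested, 13 higher and 7 lower with a median of 0.15. Syk, the kinase that docks on phosphorylated ITAMs, read 12.74, 12.49, 12.42 and 12.23 in blood and 11.74, 12.13, 11.63 and 11.89 in spleen. All 4 spleen arrays lay below all blood arrays, a difference of -0.62 ± 0.21 (SE, unadjusted p = 0.0153, adjusted p = 0.731, limma). The kinase Btk differed by -0.57 ± 0.29 (SE, unadjusted p = 0.0764). Of 18 inhibitory signalling genes, 17 were tested, 8 higher and 9 lower with a median of -0.074 and 0 at an unadjusted p under 0.05. The adaptor Dok2 differed by 0.81 ± 0.38 (SE, unadjusted p = 0.0597), the ITIM-bearing adhesion molecule Pecam1 differed by -0.51 ± 0.23 (SE, unadjusted p = 0.0567, groups not overlapping), and the sialic acid-binding inhibitory receptor Siglece differed by -1.06 ± 0.55 (SE, unadjusted p = 0.0876). The lipid phosphatase Inpp5d (SHIP1), which FcγRIIB recruits, differed by -0.23 ± 0.38 (SE, unadjusted p = 0.56); it was named for that role and not by its p.

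Among 10 receptors that use the Fcer1g chain, 8 were tested, 4 higher and 4 lower with a median of 0.0018. Clec4e (Mincle), a receptor for mycobacterial glycolipid, differed by 1.29 ± 0.55 (SE, unadjusted p = 0.042, adjusted p = 0.884, limma), and Clec4d, its partner, by 1.04 ± 0.69 (SE, unadjusted p = 0.171). Clec4b1 differed by -0.36 ± 0.42 (SE, unadjusted p = 0.413). Of 11 other immunoglobulin receptors, 10 were named on the array and only 5 passed the filter on dim probes and missing values, with a median of 0.055. Trim21, a cytosolic antibody receptor, differed by -0.56 ± 0.32 (SE, unadjusted p = 0.119), Fcer2a, the low-affinity IgE receptor, 0.16 ± 0.19 (SE, unadjusted p = 0.431), and Fcrl1 0.39 ± 0.82 (SE, unadjusted p = 0.643). Fcer2a lay near the background level of 6.8, reaching it on 1 blood and 3 spleen arrays.

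All 8 genes of FcRn's partner and the recycling endosome were tested, 2 higher and 6 lower with a median of -0.22, although B2m, which encodes the partner chain itself, differed by only -0.068 ± 0.19 (SE, unadjusted p = 0.732). The small GTPase Rab4a, which returns cargo rapidly from early endosomes, differed by -1.13 ± 0.41 (SE, unadjusted p = 0.0208, adjusted p = 0.757, limma). The Rab11 effector Rab11fip1 differed by -0.57 ± 0.24 (SE, unadjusted p = 0.0403), and the endosomal ATPase Ehd1 0.93 ± 0.49 (SE, unadjusted p = 0.0866). Of 15 regulators of Fc receptor expression, 14 were tested, 7 higher and 7 lower with a median of 0.019. The myeloid factor Cebpa differed by 0.74 ± 0.27 (SE, unadjusted p = 0.021, adjusted p = 0.758, limma). Stat6, which carries the IL-4 signal, differed by -0.47 ± 0.20 (SE, unadjusted p = 0.0419) with all spleen arrays below blood, and Stat2, of the interferon pathway, -0.71 ± 0.31 (SE, unadjusted p = 0.0465). Spi1, the myeloid factor PU.1, differed by 0.053 ± 0.21 (SE, unadjusted p = 0.806).

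**Figure D4:**
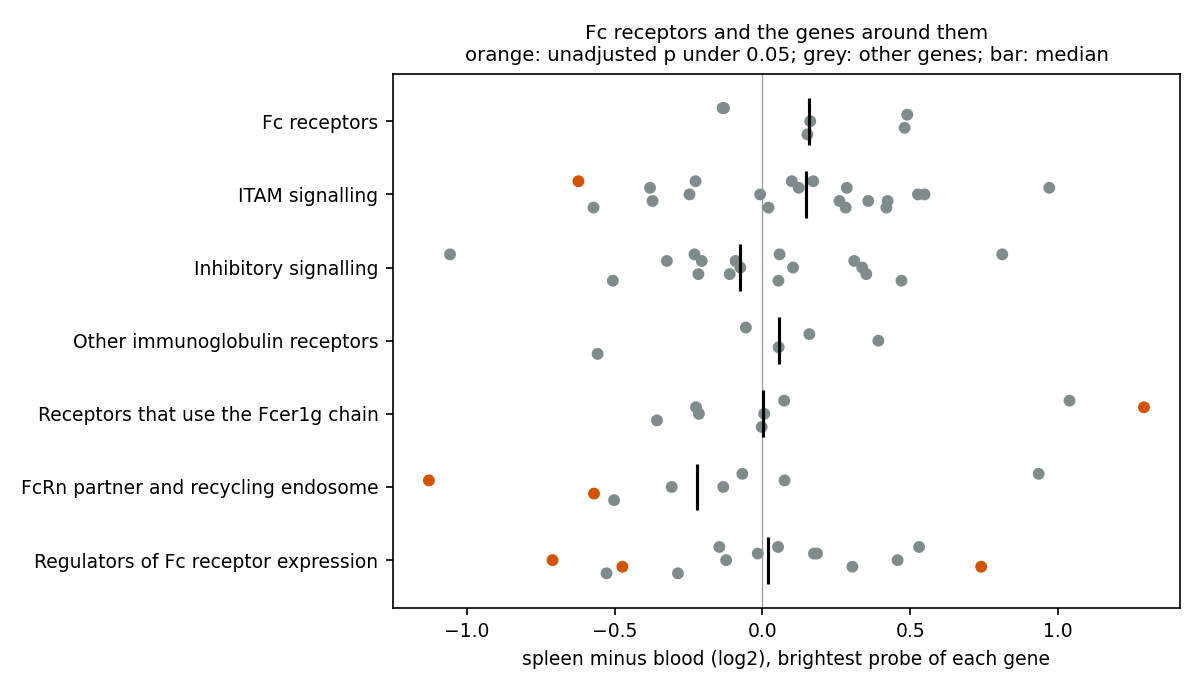
Spleen minus blood (log2, horizontal axis) of the 6 Fc receptor genes and of the 72 tested genes in 6 surrounding lists; each point is a gene's brightest probe, orange marks an unadjusted p under 0.05 and the bar is the list median. The Fc receptors hold no orange point, and the lists scatter on both sides of 0.

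Because other cells carry Fc receptors too, marker lists were read in the same arrays. Each marker was taken relative to its own mean over the 8 arrays, and a list's shift in an array is the median of these values on the log2 scale. At an unadjusted p under 0.05 stood 5.43% of all genes, and 48.8% of all genes were higher in spleen. Ly-6C-high monocyte markers, such as Ccr2 and Ly6c1, had overlapping shifts of -0.038 to 0.32 in blood and -0.29 to 0.22 in spleen. Of 4 tested, 0 were higher and 4 lower in spleen, and 0 had an unadjusted p under 0.05. The tested Ccr2 probe differed by -0.41 ± 0.24 (SE, unadjusted p = 0.127, limma), with all spleen arrays below blood. Shifts of neutrophil markers did not overlap, at -2.16 to -0.76 in blood and 0.85 to 2.50 in spleen. Of these markers, 8 of 8 tested were higher in spleen, 6 at an unadjusted p under 0.05. Neutrophils carry FcγRIII and FcγRIV and were to be removed by the Ly-6G gate.

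Markers of Ly-6C-low monocytes, which carry FcγRIV, shifted by -0.33 to -0.040 in blood and by -0.033 to 0.64 in spleen, so that the groups only just parted. Of 7 tested, 5 were higher and 2 lower, and the median was 0.58. Treml4 (1.23), Pglyrp1 (1.68), Itgal (0.58) and Spn (0.68) had an unadjusted p under 0.05. All spleen arrays lay above blood for Treml4, Pglyrp1 and Itgal, whereas Spn overlapped between the tissues. Cx3cr1 (-0.074), Ace (0.054) and Cd36 (-0.54) overlapped too and did not reach that level. Red pulp macrophage markers shifted by -0.57 to -0.010 in blood arrays and 0.15 to 0.32 in spleen arrays, and 3 of 8 tested had an unadjusted p under 0.05. Shifts of dendritic cell markers overlapped, at -0.26 to 0.033 and -0.083 to 0.46, with 1 of 7 tested at that level. The part of these cells in the Fc receptor values was not tested.

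The shifts of the other lists overlapped between the tissues. Of the mast cell and basophil markers, Cpa3, Mcpt8, Kit and Gata2 never reached the background level, Fcer1a did on all 8 arrays (6.89 to 7.47), and Hdc differed by 2.43 ± 0.67 (SE, unadjusted p = 0.00611, adjusted p = 0.631, limma). Of the NK cell markers, Klrb1c and Gzmb never reached the background level, while Nkg7 did on 5 arrays and was highest in spleen 3, at 8.51. Of the T cell markers, Lck never reached it, while Cd4, Cd3e and Cd3g did on all 8 arrays, with Cd3e highest in spleen 3 at 10.75 and Cd3g in spleen 4 at 8.82. B cell markers, of a cell type known for FcγRIIB, shifted by -0.23 to 0.22 in blood and -0.24 to 0.13 in spleen. Platelet markers shifted by -1.5 to 1.81 in blood and -1.44 to -0.028 in spleen, and general monocyte markers by -0.098 to 0.25 and -0.21 to 0.14.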

How the data were processed

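Total RNA of sorted monocytes was amplified, labelled with Cy3 and hybridized to 8 arrays of 45018 spots, per the labels. The scanner files hold spot intensity from Agilent Feature Extraction 9.5.1.1, per the file headers. The deposited value table holds the authors' log2 values, and limma appears among the tools in the submitters' processing notes. How it was normalized is not given in the sources used here. Its columns share a median of 7.31 and rank probes as the scanner's median signal does in the 5 matching arrays. Table cells left empty by the authors were not filled in. The planned source of the values was that deposited table.

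Probes were named by accession through RefSeq gene names (55.7% of 41174 probes matched), otherwise by the name in the files. Probes reaching 6.8, from which at least 95% of probes were well above background by the scanner's test, on 4 of 8 arrays and with 3 values per tissue were kept: 25471 probes, and 18266 genes by their brightest probe. Spleen was compared with blood with lmFit and eBayes (limma 3.58.1, R 4.3.3, data.table version 1.17.8), unpaired, with Benjamini-Hochberg adjustment over all genes at 0.05. The test was checked on simulated data. Ratios used exact permutation tests (Python 3.11.15, numpy 2.4.6, scipy 1.17.1, pandas 2.3.3, matplotlib 3.10.9 for the plots). The number of arrays limits the precision.

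Text names all members, the 3 genes of each list with the smallest p (1 such gene is not reported here), the 3 genes most like each member and the marker lists; Inpp5d, B2m and Spi1 were added for their roles after their values were seen. The members and lists were chosen with earlier results of these data known. Alternatives changed the source of the values, normalization, dim-probe filter, probe choice, variance model, array weights, replicate block and the samples kept.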

Additional observations from a re-analysis of the deposited data

Results flagged for a closer look

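Of 79 groups of 4 samples examined, 2 held a sample far from the other 3, and chance gives about 1 in 20 such groups. The first was the log2 level of Fcgr1 minus that of Fcgr2b, with the Fcgr2b probe measured on all arrays, where blood 3 read 2.21 and the other blood samples 2.78 to 2.88. The second was the median of the NK cell markers in spleen, where spleen 3 read 6.85 and the others 6.47 to 6.52. Those others lay below the background level of 6.8, and spleen 3 lay just above it.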

How the results depend on the processing

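Over 20 results and 22 settings, 367 alternative values were computed. Of these, 307 kept their direction and side of the threshold or moved little. Of the rest, 36 differences of a gene, probe or ratio changed sign, and 24 counts or list medians moved. A list median that crossed 0 was counted among those that moved, or among the 307 where it moved little. No Fc receptor gene passed the adjusted threshold in any setting. At an unadjusted p under 0.05, 3 of 6 passed with all 8 scanner files (Fcgr1, Fcgr2b and Fcgr3). Over all genes 8.12% did so with the 75th percentile and 9.1% with normexp. Without blood 3 it was 1 of 6 (Fcgr2b), against 5.46% of all genes. The number of genes passing, 0 in the test reported, was 4 with the scanner files at the 75th percentile, 4 with normexp, 1 with probes above background on all arrays, 7 with the mean over probes, 8 with an intensity trend and 9 with array weights. It was 0 to 3 on leaving out a sample: 3 without blood 1, spleen 1 or spleen 2 and 2 without blood 2.

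All 8 scanner files, 3 of which differ from the table's blood columns, gave (75th percentile, then normexp) 2.51 and 2.39 for Fcgr1 (unadjusted p = 0.0133 and 0.0142, limma), 1.66 and 1.57 for Fcgr2b (0.0163 and 0.0109), 1.46 and 1.35 for Fcgr3 (0.0268 and 0.0221), -0.70 and -0.73 for Fcgr4, 1.63 and 1.43 for the second Fcgr2b probe (unadjusted p = 0.0434 and 0.0358), 1.35 and 1.12 for the third, 1.87 and 1.75 for the second Fcgr3 probe (unadjusted p = 0.0272 and 0.0285), 0.85 and 0.82 for Fcgr1 minus Fcgr2b and -2.35 and -2.30 for Fcgr4 minus Fcgr2b. List medians moved to -1.10 and -0.62 (other immunoglobulin receptors), 0.025 and -0.0081 (FcRn partner and endosome) and 0.38 and 0.28 (regulators). With only the matching scanner files, then only the matching columns, Fcgrt was 0.55 and 0.54, the second Fcgr2b probe 0.15 and 0.089 and the inhibitory list 0.27 and 0.27; Fcer1g was -0.031 and Fcgr4 minus Fcgr2b -0.13 in those files, and the columns held no blood value for Fcgr2b or Fcer1g. Probes above background on all arrays gave -0.026 for Fcgr2b and -0.31 for the other immunoglobulin receptors, the mean over probes gave -0.013 for Fcgr3 and -0.0086 for the FcRn list, no filter gave -0.23 for Fcer1g, and array weights gave 0.033 for the second Fcgr2b probe. With the all-array Fcgr2b probe, Fcgr3 minus Fcgr2b was 0.19. Within the slide shared by blood 4 and spleen 4, Fcgrt was 0.44, the inhibitory list 0.29 and the regulators -0.34; a slide block could not be fitted. The cause was not tested.

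Leaving out each sample in turn gave -0.0087 to 0.30 for Fcgr3 (below 0 without blood 1), -0.46 to 0.15 for Fcgrt (above 0 without blood 3 or spleen 1), -0.28 to 0.21 for the second Fcgr2b probe (above 0 without blood 3, spleen 1 or spleen 2) and -0.21 to 0.33 for Fcgr4 minus Fcgr2b (below 0 without blood 2, spleen 3 or spleen 4). With no change of sign, Fcgr4 was 0.17 (without spleen 4) to 0.75 (without blood 3), Fcgr2b 0.23 (without blood 1) to 0.75 (without blood 3), Fcer1g 0.0057 (without spleen 1) to 0.27 (without spleen 3) and Fcgr1 -0.33 (without spleen 1) to -0.028 (without spleen 4). Same-numbered samples deviated together at correlations of 0.090 to 0.141, against -0.12 to 0.034 for other pairs, so every sample correlated best with its own number. Because deviations from a tissue mean sum to 0, the values of same-numbered and other pairs are not independent. Blood 4 and spleen 4 also shared a slide. Whether the numbers mark mice was not tested. No label says that they do, and for that reason same-numbered samples were not taken as pairs in the main test. With the number as a fixed replicate block 1 gene passed and as a random replicate block 13, at a correlation of 0.21, none of them an Fc receptor. Within the 3 numbers with both values, Fcgr1 minus Fcgr2b changed by -0.48 and Fcgr3 minus Fcgr2b by -0.25 (each lower in 3 of 3, exact sign-change p = 0.25, the smallest possible), and Fcgr4 minus Fcgr2b by -0.21 (p = 0.5, exact).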

Other observations

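The scanner files deposited for blood 1, blood 2 and blood 3 are not used by the comparisons from the table. They held other levels of some Fc receptors than the 5 matching files, which are those of blood 4 and of all spleen samples. On the log2 scale relative to each array's 75th percentile, Fcgr1 was 0.467 to 1.83 in those 3 files and 4.02 to 4.94 in the other 5, and Fcgr3 was 0.486 to 2.06 against 3.24 to 3.60. Fcgr2b probe 1 was -0.041 to 1.87 against 2.72 to 3.68. Fcgr4 was 4.02 to 4.85 against 2.52 to 4.10, overlapping at its edge. Ranges also overlapped for Fcer1g probe 1 (4.70 to 5.76 against 5.65 to 6.10) and probe 2 (4.12 to 5.31 against 4.88 to 5.46). Fcgrt overlapped too, at -1.44 to 0.51 against -2.38 to 0.11. Ccr2 was 2.23 to 3.42 against 4.54 to 5.09. Of the Ly-6C-low markers, Spn was 4.62 to 5.59 against 3.93 to 4.98, Treml4 4.45 to 4.57 against 2.88 to 4.45, Cx3cr1 -0.54 to 0.79 against 0.72 to 1.48 and Ace 0.254 to 2.63 against 0.463 to 2.80. What these 3 files hold was not tested.

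Along the chromosome, the tested genes whose probes lay between Fcgr3 and Fcer1g, among them Sdhc (-0.20 ± 0.29, SE), Tomm40l (0.41 ± 0.43) and Apoa2 (-0.21 ± 0.34), also overlapped between the tissues (adjusted p rounding to 1, limma).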
